A study of Mus musculus with 2 samples.

Results

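Enzymes that break down amino acids and move single carbon units were compared between mouse primary hepatocytes given control siRNA and cells given G0s2 siRNA. The genes were taken by name from a list of 51, chosen by function but with earlier results of these data known. All 51 had at least 1 probe on the arrays, among 31788 gene names in all. Each gene is represented by its brightest probe, and all 51 were well above background on both arrays. They were set against 18780 genes measured the same way, where measured means well above background on at least 1 array.

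Both groups were mouse primary hepatocytes, the parenchymal cells of the liver taken into culture, kept in medium with 10% serum. The strain, sex and age of the mice and the number of animals or wells behind each RNA are not given in the sources used here. The control siRNA group has 1 array and the G0s2 siRNA group has 1 array, each made 24 hours after transfection of 50 pmol of siRNA with the lipid reagent Lipofectamine. G0s2 encodes an inhibitor of the triglyceride lipase Pnpla2, and the series asked how its loss alters gene expression in these cells. With 1 array per group no difference has a replicate check, no p-value was computed, and every statement compares 2 arrays.

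The liver is the main site of breakdown for most amino acids other than the branched-chain ones. Nitrogen is removed by transaminases and dehydratases, and the carbon skeletons enter gluconeogenesis, ketone body synthesis or the citric acid cycle. One-carbon enzymes pass methyl groups, through methionine and S-adenosylmethionine, and formaldehyde-level units, through folate, between serine, glycine, histidine and choline breakdown. Several of these enzyme genes, among them Tat, Tdo2 and Sds, are textbook targets of glucocorticoids and glucagon.

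Levels below are log2 signals minus the 75th percentile of the array, so a level of 0 is the 75th percentile. A difference is the level with G0s2 siRNA minus the level with control siRNA, with the scanner's own error after the ± sign. That error has a median of 0.20 over the 51 genes and ran from 0.20 to 0.25, so it was nearly the same for most. It says nothing of how separate cultures or RNA preparations vary. The 75th percentile itself stood at a signal of 418.4 with control siRNA and 727.6 with G0s2 siRNA, and no spot was saturated. G0s2 itself had levels of -0.13 and -2.83, a difference of -2.70 ± 0.21, so the targeted gene was lower in the library labelled as its knockdown. Markers of hepatocytes, such as Alb and Ttr, were well above background on both arrays for 7 of 8 list members, and the name Tf had no probe.

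Of the 51 genes, 8 were higher with G0s2 siRNA by 2-fold or more, 3 were lower by as much, and the other 40 lay between. Over all measured genes those shares were 4.71% higher and 5.05% lower. The share of the enzyme genes was 15.7% in the higher direction, in a list chosen with earlier results of these data known. In the lower direction it was 5.88%, which is near the share for all genes. The median difference was 0.15, beside -0.01 for all measured genes, and 27 genes had a positive and 24 a negative difference. From the 10th to the 90th percentile the enzyme genes ran from -0.51 to 1.29, and all genes from -0.72 to 0.68. The higher genes were Sds, Aldh6a1, Afmid, Aass, Cdo1, Tdo2, Hgd and Acmsd, and the lower genes were Ivd, Fah and Bhmt. Of the higher genes, Tdo2, Afmid and Acmsd all belong to tryptophan breakdown, and the others to other amino acids. In tyrosine breakdown the higher Hgd and the lower Fah belong to 1 pathway.

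**Figure D1:**
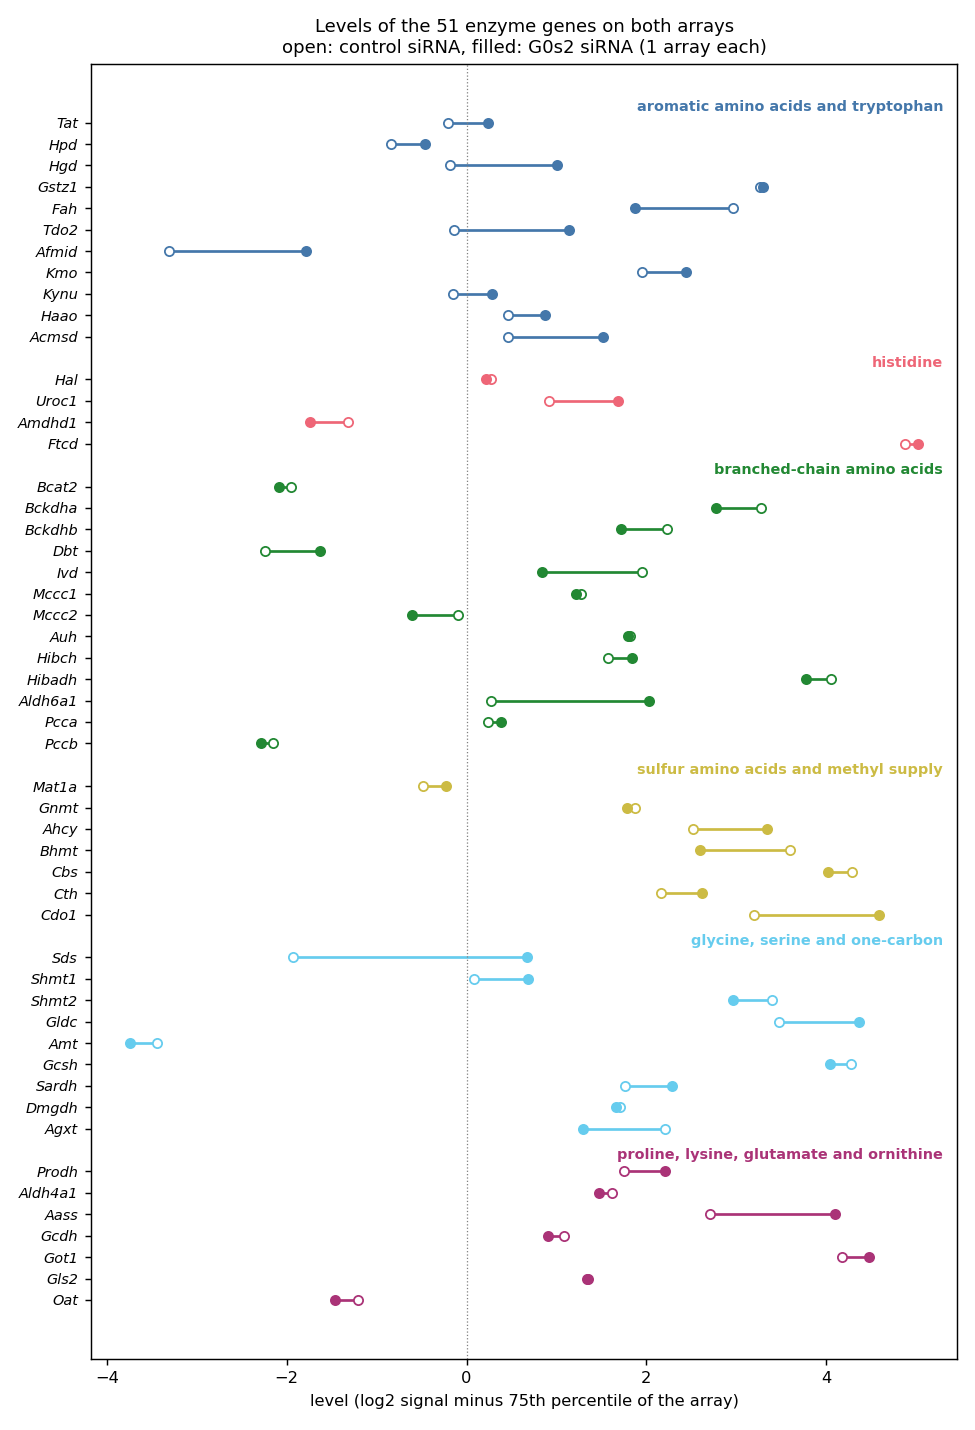
Level of each enzyme gene (log2 signal minus the array's 75th percentile, horizontal axis) on the control siRNA array (open circles) and the G0s2 siRNA array (filled circles), by amino acid group, with 1 array per group. Lines join both values of a gene, and the longest belongs to Sds, from -1.93 to 0.67; levels of different genes rest on different probes and are not to be ranked.

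Sds, serine dehydratase, which turns serine into pyruvate and ammonia, differed most. Its levels were -1.93 with control siRNA and 0.67 with G0s2 siRNA, a difference of 2.60 ± 0.21, or 6.08-fold. It ranked 28 from the highest of the 18780 measured genes. The raw signals were 109.7 and 1159.4, so both spots were clear of background. Its only probe, for NM_145565, matches the plus strand of mm9 at chr5:120933105-120933164, at position 738 of the transcript. Exon and UTR annotation of that build was not used here. The first 30 of the probe's 60 bases are shown because this value rests on that single spot per array.
Sds probe: gggcgcagaccctgaagctgttttacgaac

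The other 8 of the 9 listed enzymes of glycine, serine and one-carbon metabolism differed by less than 2-fold. The median of the group's 9 genes was -0.04, with 4 positive and 5 negative. Sdsl, a relative of Sds that served as a related gene outside the list, differed by -0.16. Both serine hydroxymethyltransferases, which split serine into glycine and a folate-bound carbon, lay on opposite sides of 0. Shmt1, the cytosolic form, had levels of 0.09 and 0.68, a difference of 0.59 ± 0.20. Shmt2, the mitochondrial form, had levels of 3.39 and 2.96, a difference of -0.43 ± 0.20. The other probe of Shmt1 gave 0.71, so both of its probes were higher with G0s2 siRNA.

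The glycine cleavage system, a mitochondrial complex that frees a carbon unit from glycine, did not move as a unit. Gldc, its decarboxylase, had levels of 3.48 and 4.36, a difference of 0.88 ± 0.20. Gcsh, the carrier protein, had levels of 4.28 and 4.04, a difference of -0.24 ± 0.20. Its other probes gave -0.28 and -0.51, the last with a control level of only -4.56. Amt, the aminomethyltransferase, differed by -0.30 ± 0.25, on spots of low signal. Gldc was thus higher while the other listed components lay slightly below 0. Sardh and Dmgdh, which oxidise sarcosine and dimethylglycine in choline breakdown, differed by 0.52 and -0.04. Agxt, which removes glyoxylate in peroxisomes by making glycine, had levels of 2.21 and 1.29, a difference of -0.92 ± 0.20. That value falls just short of 2-fold, as do Gldc and, at 0.82, Ahcy in the higher direction, while Bhmt at -1.0004, Acmsd at 1.06 and Fah at -1.08 lie just past it.

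In tryptophan breakdown all 6 listed genes had a positive difference, beside 46.1% of all measured genes. The median was 0.77, and 3 of the 6 were at least 2-fold higher, beside 4.71% of all measured genes. Tdo2, tryptophan dioxygenase, which opens the ring in the first and rate-limiting step, had levels of -0.14 and 1.14, a difference of 1.29 ± 0.20, or 2.44-fold. Afmid, the formamidase of the second step, had levels of -3.31 and -1.79, a difference of 1.53 ± 0.24, but its control signal was only 42.1. With normexp, another background correction, Afmid differed by 0.64, under 2-fold. Acmsd, which steers the pathway away from NAD synthesis towards full oxidation, had levels of 0.46 and 1.52, a difference of 1.06 ± 0.20.

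The steps between were higher by less than 2-fold on their brightest probes. Kmo, the mono-oxygenase, had levels of 1.95 and 2.45, a difference of 0.49 ± 0.20. Kynu, kynureninase, had levels of -0.15 and 0.28, a difference of 0.42 ± 0.20. Haao, which makes the precursor that Acmsd consumes, had levels of 0.46 and 0.87, a difference of 0.41 ± 0.20. Each of Kmo and Kynu had a dimmer probe with a larger difference, 1.11 for Kmo and 1.74 for Kynu. The Kynu probes lie at positions 762 and 1692 of the same transcript, NM_027552, and disagree by more than their errors. Of the related genes, Ido2, a second tryptophan-opening enzyme, differed by 0.46, the kynurenine aminotransferase genes Ccbl1 and Ccbl2 by 0.87 and 0.50, and Qprt, on the NAD branch, by -0.42.

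Tyrosine breakdown had 4 of 5 genes with a positive difference, and its last step was lower. Tat, tyrosine aminotransferase, had levels of -0.21 and 0.24, a difference of 0.44 ± 0.20. Hpd, the dioxygenase that follows, had levels of -0.84 and -0.46, a difference of 0.37 ± 0.21. Hgd, homogentisate dioxygenase, was higher still, with levels of -0.19 and 1.01 and a difference of 1.20 ± 0.20, or 2.29-fold. Gstz1, the isomerase after it, had levels of 3.27 and 3.29 and a difference of 0.03 ± 0.20, within the scanner error. Fah, fumarylacetoacetate hydrolase, the last step, had levels of 2.96 and 1.88, a difference of -1.08 ± 0.20, or 2.12-fold lower. Each of these values rests on 1 probe. Of the related genes, Qdpr, which recycles tetrahydrobiopterin, differed by 0.60.

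The Hgd probe matches the plus strand of mm9 at chr16:37621972-37622031. On the minus strand, the Fah probe spans chr7:91740916-91741732 and the Tdo2 probe spans chr3:81767918-81770928. Both spans are longer than the 60 bases of a probe, so the probe's match is split on the genome. The first 30 bases of each probe are shown because these 3 aromatic genes passed 2-fold, in both directions.
Hgd probe: actacacaccctacaagtacaacctagaga
Fah probe: tacacatttgatatcaacctgtctgtctct
Tdo2 probe: agaagaatttctaaggattcaggctaaaac

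**Figure D2:**
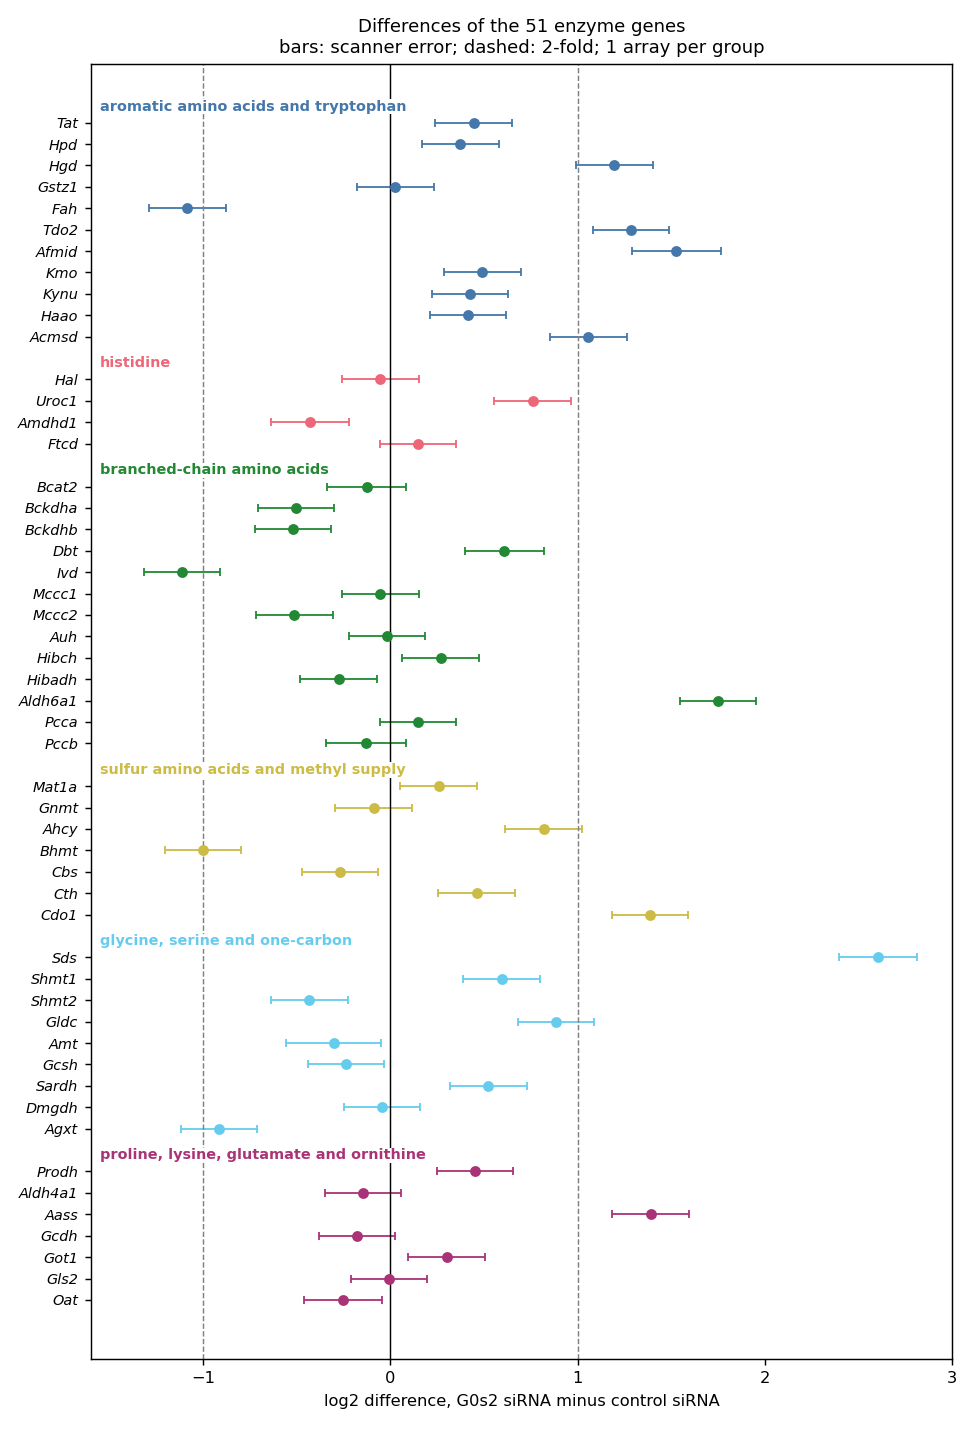
Log2 difference (G0s2 siRNA minus control siRNA, horizontal axis) of each enzyme gene, with bars for the scanner's own error, dashed lines at 2-fold and colours for amino acid groups; each group has 1 array. Sds at 2.60 stands farthest to the right, and the tryptophan genes Tdo2 to Acmsd all lie right of 0. All 4 leucine genes Ivd to Auh lie left of 0, with Mccc1 and Auh within the scanner error of 0.

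Histidine breakdown, a pathway of 4 genes that ends in a folate-bound carbon unit, had no gene past 2-fold and a median of 0.05. Hal, histidine ammonia-lyase, the entry step, had levels of 0.28 and 0.22, a difference of -0.05 ± 0.20. Uroc1, urocanase, had levels of 0.92 and 1.68, a difference of 0.76 ± 0.20. Amdhd1, the next step, had levels of -1.32 and -1.74, a difference of -0.43 ± 0.21. Ftcd, which loads the carbon unit on folate, differed by 0.15 ± 0.20. Neighbouring steps therefore differed in both directions. A further Hal probe, for a transcript with an Ensembl identifier, was not well above background on the control array and gave a bound of at least 2.09-fold higher.

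For the branched-chain amino acids 4 of 13 differences were positive and 9 negative, around a median of -0.13. The exception in size was Aldh6a1, methylmalonate semialdehyde dehydrogenase of valine breakdown. Its levels were 0.28 and 2.03, a difference of 1.75 ± 0.20, or 3.36-fold, rank 145 from the highest of all measured genes. A dimmer probe, with a control level of only -4.48, gave 2.33 ± 0.31, so both of its probes passed 2-fold. The earlier valine steps differed little, Hibch by 0.27 and Hibadh by -0.28. Its brightest probe matches the minus strand of mm9 at chr12:85771835-85771894, and its first 30 bases are shown as the value with the largest difference in this group.
Aldh6a1 probe: taatcataatcaacagatttgaccagctac

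All 4 leucine genes had a negative difference, beside 9471 of the 18780 measured genes, and their median was -0.28. Ivd, isovaleryl-CoA dehydrogenase, had levels of 1.96 and 0.84, a difference of -1.11 ± 0.20, or 2.16-fold lower. Mccc1 and Mccc2, the subunits of methylcrotonyl-CoA carboxylase, differed by -0.05 ± 0.20 and -0.51 ± 0.20. The second Mccc1 probe gave 0.05, so Mccc1 lay within the scanner error of 0 on both probes. Auh, the hydratase that follows, differed by -0.02 ± 0.20, within the scanner error of 0. Under normexp Mccc1 and Auh were at 0.08 and 0.15.

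The steps shared between branched-chain amino acids were not aligned with each other. Bcat2, the mitochondrial transaminase, differed by -0.13 ± 0.21. Of the branched-chain ketoacid dehydrogenase complex, Bckdha and Bckdhb, which encode its decarboxylase, had levels of 3.28 and 2.77, and of 2.23 and 1.71. Their differences were -0.50 ± 0.20 and -0.52 ± 0.20. Dbt, the core acyltransferase, differed by 0.61 ± 0.21, with 0.23 under normexp. The complex's regulators among the related genes, the kinase gene Bckdk and the phosphatase gene Ppm1k, differed by -0.01 and 0.08. Pcca and Pccb, the subunits of propionyl-CoA carboxylase, differed by 0.15 and -0.13, within the scanner error of 0.

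For sulfur amino acids and methyl supply 4 of 7 differences were positive, around a median of 0.26. Cdo1, cysteine dioxygenase, which commits cysteine to taurine and sulfate, had levels of 3.20 and 4.59, a difference of 1.39 ± 0.20, or 2.61-fold. Cth, which makes cysteine, had levels of 2.16 and 2.62, a difference of 0.46 ± 0.20, and its other probe, of nearly the same brightness, gave 0.20. Cbs, the step before it, had levels of 4.29 and 4.02, a difference of -0.27 ± 0.20. Only the last of these steps was past 2-fold.

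The methionine cycle had its 2 larger differences in opposite directions. Ahcy, which clears S-adenosylhomocysteine, had levels of 2.52 and 3.34, a difference of 0.82 ± 0.20. Its other probes gave 0.96 and 0.92, so all 3 were higher with G0s2 siRNA. Bhmt, which remethylates homocysteine with betaine, had levels of 3.60 and 2.60, a difference of -1.0004 ± 0.20 at the edge of the rule. Its other probes gave -1.13 and -1.02, so all 3 passed 2-fold. Bhmt2, a close relative, differed by 0.63, and Mtr, which uses folate for the same remethylation, by 0.63. Mat1a, which makes S-adenosylmethionine in adult liver, differed by 0.26, and Gnmt, which uses up its methyl group on glycine, by -0.09. Mat2a, the form outside adult liver, differed by 0.78.

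**Figure D3:**
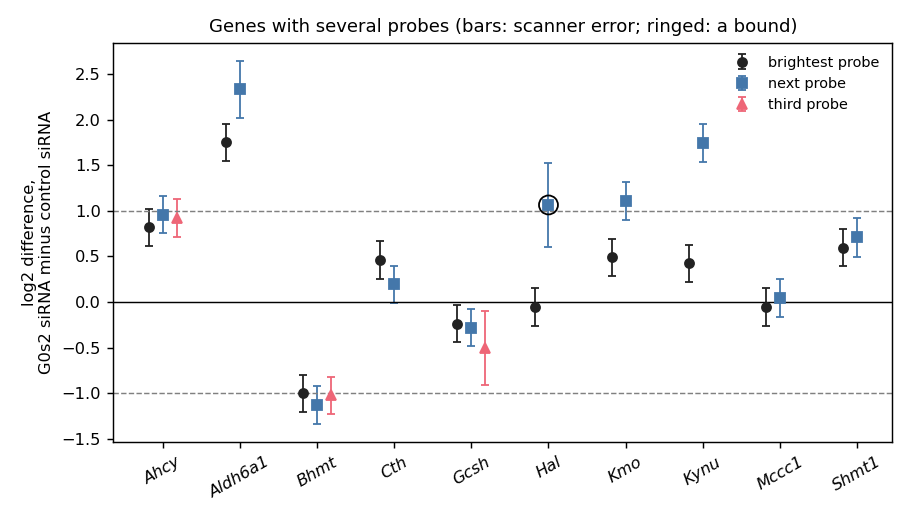
Log2 difference (G0s2 siRNA minus control siRNA, vertical axis) given by each probe of the 10 enzyme genes with several probes, with bars for the scanner error; black circles are the brightest probe, squares the next and triangles the third, and the ringed Hal value is a bound. The 3 Bhmt probes lie at -1.0004, -1.13 and -1.02, while the Kynu probes lie at 0.42 and 1.74.

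Among the remaining genes 1 of 7 was at least 2-fold higher and none was at least 2-fold lower, beside 4.71% and 5.05% of all measured genes. Aass, which starts lysine breakdown, had levels of 2.71 and 4.10, a difference of 1.39 ± 0.20, or 2.62-fold. Gcdh, a later step of lysine and tryptophan breakdown, differed by -0.18 ± 0.20. Prodh, which starts proline breakdown, differed by 0.45 ± 0.20, and Aldh4a1, the next step, by -0.15 ± 0.20. Got1, the cytosolic aspartate aminotransferase, differed by 0.30, Gls2, the liver glutaminase, by -0.01, and Oat, ornithine aminotransferase, by -0.25. For both lysine and proline the first step had a positive difference, and the later listed step lay within the scanner error of 0.

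Whether the values depend on the probe could be looked at for 10 of the 51 genes. The brightest and the next probe had the same sign in 8 of the 10, and lay within 0.3 of each other in 6. The exceptions in sign were Hal and Mccc1. The other 41 genes had a single probe, and each probe of the 51 genes had 1 spot per array.

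The related genes were a list of 74 further enzymes of the same pathways, of which 68 were measured, 32 with a positive and 36 with a negative difference. Of these, 1 was at least 2-fold higher, Mthfd2l, a mitochondrial folate enzyme, with levels of -1.66 and -0.62 and a difference of 1.05 ± 0.21. The 1 at least 2-fold lower was Phgdh, the first enzyme of serine synthesis, with levels of 4.09 and 2.80 and a difference of -1.28 ± 0.20. Its successor Psat1 differed by -0.68 and the last step of serine synthesis, Psph, by 0.26. Serine synthesis thus had its first steps lower on the array where Sds was higher. The alanine aminotransferase genes Gpt and Gpt2 differed by 0.67 and 0.87. The median of the related list was -0.02, so it lay close to that of all genes. Mthfd2l and Phgdh each make up 1.47% of the measured related genes. Over all measured genes 4.71% passed the rule upwards and 5.05% downwards, so the related list was below these shares in both directions. The 15.7% of the enzyme list in the higher direction was therefore not seen in the related list.

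Transcription factors and coactivators known to act on these genes were a list of 12. Of them 1 was at least 2-fold higher, beside 4.71% of all measured genes. Hnf4a, a nuclear receptor of hepatocytes, had levels of 4.32 and 5.36, a difference of 1.04 ± 0.20. Ppargc1a, a coactivator of fasting genes, differed by 0.76, Nr3c1, the glucocorticoid receptor, by 0.46 and Klf15, a factor of amino acid breakdown, by 0.40. Foxo1, Crtc2 and Creb1 had negative differences of -0.23, -0.38 and -0.47.

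Genes listed as markers of cell types also differed between the arrays. In such bulk RNA, fewer cells of a type and less RNA per cell cannot be told apart. Which cells carried the signal of a marker was not tested. Cholangiocyte markers were lower with G0s2 siRNA in 4 of 4 measured of 5, with a summed signal of 4.34 times the 75th percentile on the control array and 2.01 times on the G0s2 siRNA array. The fifth, Epcam, was not well above background on either. Hepatocyte markers were higher in 6 of 7 measured, with sums of 989.2 and 1139.9, mostly from Alb and Serpina1a. That list shares Hnf4a with the transcription factors and Cps1 with the periportal genes. Of the stellate list, Des, Lrat, Pdgfrb and Reln were not well above background on either array, and Acta2 differed by 0.29, with sums of 0.085 and 0.104. Macrophage sums were 3.58 and 3.44. Endothelial sums were 9.33 and 6.81, mostly from Kdr, which differed by -0.51. The 3 of 5 endothelial genes that were higher had control signals of at most 28.1. Lymphocyte and neutrophil sums were 1.91 and 0.95 with 2 of 5 genes measured, mostly from Cd3e, which differed by -1.01. The other measured gene, Cd79a, was well above background on the control array only. Ptprc, Ms4a1 and S100a8 of that list were not well above background on either array. The part of cell makeup in the enzyme differences was not tested.

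Some of these enzymes are zoned along the liver lobule, with Sds, Hal and Gls2 known as periportal and Oat as pericentral. Their differences were 2.60, -0.05, -0.01 and -0.25, so of the periportal genes Sds alone was far from 0. In a list of other periportal genes all 7 measured had a positive difference, beside 46.1% of all genes. Of them 2, Cps1 and Arg1, were at least 2-fold higher, beside 4.71% of all genes. The other 5 lay between 0.03 for Pck1 and 0.42 for G6pc, with Pck1, Cyp2f2 and Aldh1b1 within the scanner error of 0. In a list of other pericentral genes 4 of 7 measured had a negative difference and 3 a positive one. At least 2-fold lower were 3 of the 7, Cyp1a2, Rhbg and Slc1a2, beside 5.05% of all genes, while Tbx3 differed by 0.41, Cyp2e1 by 0.23, Gulo by 0.01 and Glul by -0.33.

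Promoter sequences were matched to 44 of the 51 genes, from RefSeq on GRCm38.p6. The 250 bases before the start of 4 genes are shown, because Hgd and Fah differed in opposite directions within 1 pathway and Tdo2 and Aldh6a1 were higher by 2-fold or more in other pathways. Where a gene had several starts, the first listed was used. Capitals mark matches on either strand. The letters searched were TATAAA for a TATA box, then CCAAT for the box of that name, then GGGCGG for a GC box, then TTGCNNAA for a C/EBP motif, and TGACG for the core of a cAMP response element. No matches overlap in these 4 sequences. The Hgd sequence is chr16:37579903-37580152 on the plus strand, and those of Fah, Tdo2 and Aldh6a1, all on the minus strand, are chr7:84605943-84606192, chr3:81975729-81975978 and chr12:84451025-84451274.
Hgd: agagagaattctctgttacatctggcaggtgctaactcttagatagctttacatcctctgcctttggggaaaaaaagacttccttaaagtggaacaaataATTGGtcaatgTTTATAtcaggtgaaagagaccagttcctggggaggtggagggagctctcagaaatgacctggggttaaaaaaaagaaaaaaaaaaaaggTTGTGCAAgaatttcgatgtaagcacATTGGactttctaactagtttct
Fah: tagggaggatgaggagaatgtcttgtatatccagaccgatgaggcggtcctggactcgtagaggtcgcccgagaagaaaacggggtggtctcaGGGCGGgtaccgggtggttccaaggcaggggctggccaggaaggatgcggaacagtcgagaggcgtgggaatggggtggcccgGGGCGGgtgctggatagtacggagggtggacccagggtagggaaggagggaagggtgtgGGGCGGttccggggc
Tdo2: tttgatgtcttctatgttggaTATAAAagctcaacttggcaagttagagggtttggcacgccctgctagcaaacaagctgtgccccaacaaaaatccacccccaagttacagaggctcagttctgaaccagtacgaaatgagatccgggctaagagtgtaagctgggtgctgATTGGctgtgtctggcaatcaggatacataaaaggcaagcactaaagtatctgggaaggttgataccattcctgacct
Aldh6a1: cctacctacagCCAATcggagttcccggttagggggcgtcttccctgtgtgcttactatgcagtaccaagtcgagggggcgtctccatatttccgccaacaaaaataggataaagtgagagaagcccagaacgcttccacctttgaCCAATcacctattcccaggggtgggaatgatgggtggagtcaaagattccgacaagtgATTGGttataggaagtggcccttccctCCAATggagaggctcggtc

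The 4 sequences differ in base composition and in the letters they hold. Fah has 3 GGGCGG matches and 64.4% G and C. Hgd has 38.8% G and C, with 2 CCAAT matches, 1 TATAAA match far from the start and 1 C/EBP match that begins 49 bases before it. Aldh6a1 holds 4 CCAAT matches. Tdo2 holds 1 CCAAT match and 1 TATAAA match that begins 229 bases before the start. Over the 44 matched genes CCAAT was in 59.1% of promoters and GGGCGG in 40.9%, beside 34.5% and 32.9% of 27025 promoters of the same length. TATAAA was in 9.09% against 13.0%, TTGCNNAA in 9.09% against 9.55% and TGACG in 11.4% against 17.9%. Of the 6 matched genes that were at least 2-fold higher, 4 held CCAAT, and of the 3 lower genes 2 did. TATAAA, TTGCNNAA and TGACG were each in 2 of the 6 higher and 0 of the 3 lower genes. GGGCGG was in 1 of the 6 and 1 of the 3. A match is a description of letters and shows no binding.

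**Figure D4:**
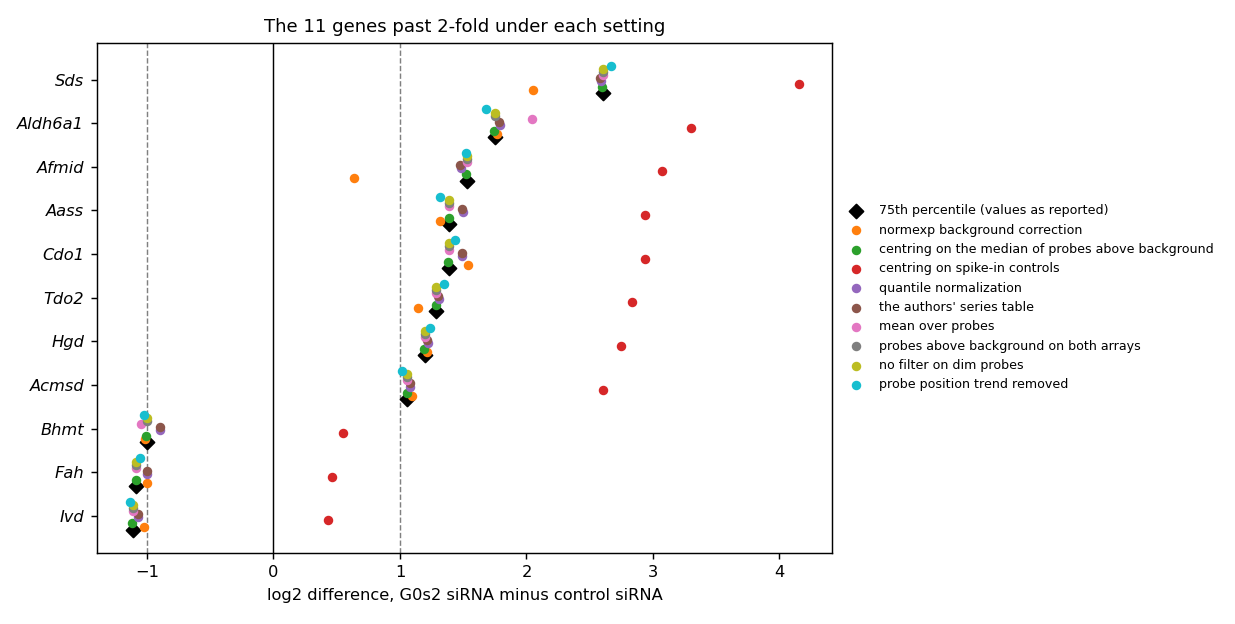
Log2 difference (G0s2 siRNA minus control siRNA, horizontal axis) of the 11 enzyme genes past 2-fold, with black diamonds for the values as reported, coloured circles for other ways to process the arrays and dashed lines at 2-fold. Apart from spike-in centring, which turns Fah, Ivd and Bhmt to positive values of 0.46, 0.43 and 0.55, the circles keep the direction of the diamonds; Afmid at 0.64 under normexp lies farthest inside the dashed lines.

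Directions here are relative to the 75th percentile of each array. With spike-in centring the median of all measured genes moved to 1.504 and that of the 51 genes to 1.70, so relative to all genes the enzyme median was 0.19. On the same relative scale Fah was at -1.04, Ivd at -1.07 and Bhmt at -0.96.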

How the data were processed

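RNA from mouse primary hepatocytes was measured on 2 one-colour Agilent arrays, 1 per group, assigned from the sample labels. Per the file headers, the deposited scanner tables hold spot intensity values from Agilent Feature Extraction 10.7.1.1, with spatial and multiplicative detrending on and background correction off, and with probe coordinates on mm9. The program is also named in the submitters' processing notes. The intensity values of the authors' deposited series table, 39429 rows, had Spearman rho of at least 0.999915 with the scanner signals across probes. Both columns have a median of 33.1 and a linear scale, but how they were brought to one median is unstated; they served as an alternative.

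From the scanner tables, outlier spots were left out, 39424 probes were kept, and log2 processed signals were centred on the 75th percentile of each array. Each gene name took its brightest probe over both arrays. A signal not well above background entered at the higher of its own and the lowest well-above-background signal, which makes the difference a bound. A gene was counted at a log2 difference of 1, that is 2-fold. With 1 array per group no test was run, and the number of arrays limits the precision. The script that makes the calls was checked on simulated data with known differences, which says nothing of the spread between cultures.

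The enzyme list, the related genes and the marker lists were chosen with earlier results of these data known. The rule for names took every enzyme of the list. From the related, zonation and transcription factor and coactivator lists it took those past 2-fold plus those needed to describe a group. Cell type markers are given mainly as counts and sums. Some related genes are not reported here by name. Alternatives were normexp (offset 50), centring on 8 spike-in probes or on the median of bright probes, quantile normalization, the authors' table, the mean over probes, other filters on dim probes, subtraction of a lowess fit (span 0.3) to the position of the probe, and a 1.5-fold rule. Calculations used Python 3.11.15, numpy 2.4.6, pandas 2.3.3, statsmodels 0.14.6, R 4.3.3 and limma 3.58.1.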

Additional observations from a re-analysis of the deposited data

How the results depend on the processing

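The count of 8 enzyme genes at least 2-fold higher stayed between 8 and 9 in the alternatives other than spike-in centring, which gave 47 beside 84.6% of all genes, and the 1.5-fold rule, which gave 13 beside 12.6%. In the lower direction the 1.5-fold rule gave 4 beside 14% of all genes. The count of 3 lower genes was 1 with the authors' table, where Bhmt was at -0.90 and Fah at -0.997, and 0 with spike-in centring. It was 2 with quantile normalization, where Bhmt was at -0.90, and 3 with normexp, where Fah at -0.997 left the lower genes and Agxt at -1.005 joined them. The median of 0.15 became 1.70 with spike-in centring, which turned Fah to 0.46, Ivd to 0.43 and Bhmt to 0.55, and otherwise ran from 0.08 to 0.15. Under normexp Afmid at 0.64 left the higher genes and Gldc at 1.08 joined them, while Sds was at 2.05. The aromatic group's median of 0.44 was 0.80 with the mean over probes, under which Kynu reached 1.08. Why spike-in centring differs was not tested, and the spike-in probes differed by a median of -0.75 while the 75th percentile differed by 0.80 before centring. Amt and Afmid had the lowest control signals, 38.6 and 42.1. No paired analysis was possible because each group has 1 array.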
